A study of Mus musculus with 7 samples.

Results

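The genes described here encode potassium channels and their accessory subunits, chosen by symbol as entries starting with Kcn, with antisense, overlapping and opposite-strand transcripts left out. Of 31053 genes in the series, 94 were members, and the 80 with at least 50 unique molecular identifiers (UMIs, each counting 1 captured RNA molecule) over the 7 libraries were described. Just inside that limit lay Kcnj5 with 57 UMIs and Kcna3 with 58, and just outside it Kcnk7 with 49, Kcng3 with 47 and Kcne2 with 46. The other 11 members under the limit were Kcnh6, Kcne3, Kcne1, Kcnj15, Kcnv2, Kcnmb3, Kcnk15 and Kcna10, with 34 to 1 UMIs, and Kcnk16, Kcnj1 and Kcnk18, with none.

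Potassium channels let potassium ions pass through the cell membrane and so set its resting potential, end action potentials and clear potassium from the space around neurons. Voltage-gated channels open on depolarisation, inward rectifiers and tandem-pore leak channels carry current near rest, and ion-activated channels respond to calcium or sodium. In glia the inward rectifier Kcnj10 and leak channels are known for taking up potassium released by active neurons, and oligodendrocyte precursor cells (OPCs) carry voltage-gated currents that become smaller as they differentiate.

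The 7 libraries were single-cell RNA libraries of whole dissociated mouse brain tissue, with no cell sort named in the labels. The 3 adult libraries came from postnatal day 60 (P60) CD1 mice and held cortex, grey matter above the cortical white matter, and white matter directly above the lateral ventricles. The 4 early postnatal libraries held P2, P7 and P15 cortex of CD1 mice and the P7 subventricular zone (SVZ) of C57BL/6 mice, so SVZ and strain cannot be told apart. Cortex meant the tissue dorsal to the lateral ventricles, white matter and ventricular zone included, and no library was given a genetic change or a treatment. The labels do not say how many animals made a library, nor that libraries came from separate animals. So p-values measure the spread between these libraries, which may in part be technical. Libraries of a stage are not repeats of the same condition: the early ones differ in age, region and strain, the adult ones in region. The spread includes these differences.

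Libraries held 2127 to 6379 barcodes and 10074763 to 45668007 UMIs, and 20697 cells were kept. Cells fell into 58 clusters, 47 of which were named by marker genes (class names end in "-like"), while 2242 cells in 11 clusters stayed unnamed. Median UMIs per kept cell ran from 2791 in P60 cortex to 9530.5 in P2 cortex, and no pair of libraries shared more than 28 barcodes. Levels are given in CPM, the UMIs of a gene divided by those of all genes, both summed over the cells of a class in a library, and scaled to the same total in every sum. Sums of at least 20 cells were used. The UMIs come from the 3' ends of transcripts and are not divided by gene length. Intervals are exact Poisson intervals at the 95% level and cover counting error only.

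By UMIs over the 7 libraries, the 36 voltage-gated members used gave 37.7% of the members' UMIs, the 10 tandem-pore leak channels 21.8%, the 13 accessory subunits 17.9%, the 13 inward rectifiers 12.3% and the 8 ion-activated channels 10.4%. The most UMIs were those of Kcnk2 with 16272, Kcnj10 with 12966, Kcnk1 with 12631 and Kcna1 with 9422. Each member was assigned to the class in which its mean CPM over libraries was highest. Excitatory neuron-like cells led 28 members, interneuron-like and striatal neuron-like cells 7 each, OPC-like, astrocyte-like and mural-like cells 6 each, ependymal-like cells 5, endothelial-like and microglia-like cells 4 each, mature oligodendrocyte-like and neural precursor-like cells 3 each, and neuroblast-like cells 1. Interneuron-like and ependymal-like cells had 1 library each, so their levels have no spread. The classes were built from the same cells, although member genes were kept out of the genes used for clustering, so these levels are a description with no test. The class led changed for 2 members when member genes were allowed in clustering, 4 at Leiden resolution 1.0, 10 with doublet calls kept and 11 at a mitochondrial limit of 20%. In each of the last 2 settings 8 of these went to a Cajal-Retzius-like class that the main clustering lacks, Kcnip2, Kcna6, Kcnh7 and Kcnk9 among them. Kcnk10 was led by OPC-like cells in 3 of the 4 settings, and at resolution 1.0 Kcnd3 was led by neuroblast-like and Kcne1l by ependymal-like cells. Means over different libraries also bear on the leads. Kcnj16 in ependymal-like and Kcnrg in interneuron-like cells were not highest in the single library that holds those classes. Excitatory neuron-like cells were highest in every library that holds them for 5 of their 28 members. The same held for 1 of 6 members of OPC-like, 0 of 6 of astrocyte-like, 3 of 6 of mural-like and 5 of 7 of striatal neuron-like cells. Excitatory neuron-like cells had P15 and P60 sums, while interneuron-like and striatal neuron-like cells had none at those ages.

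**Figure D1:**
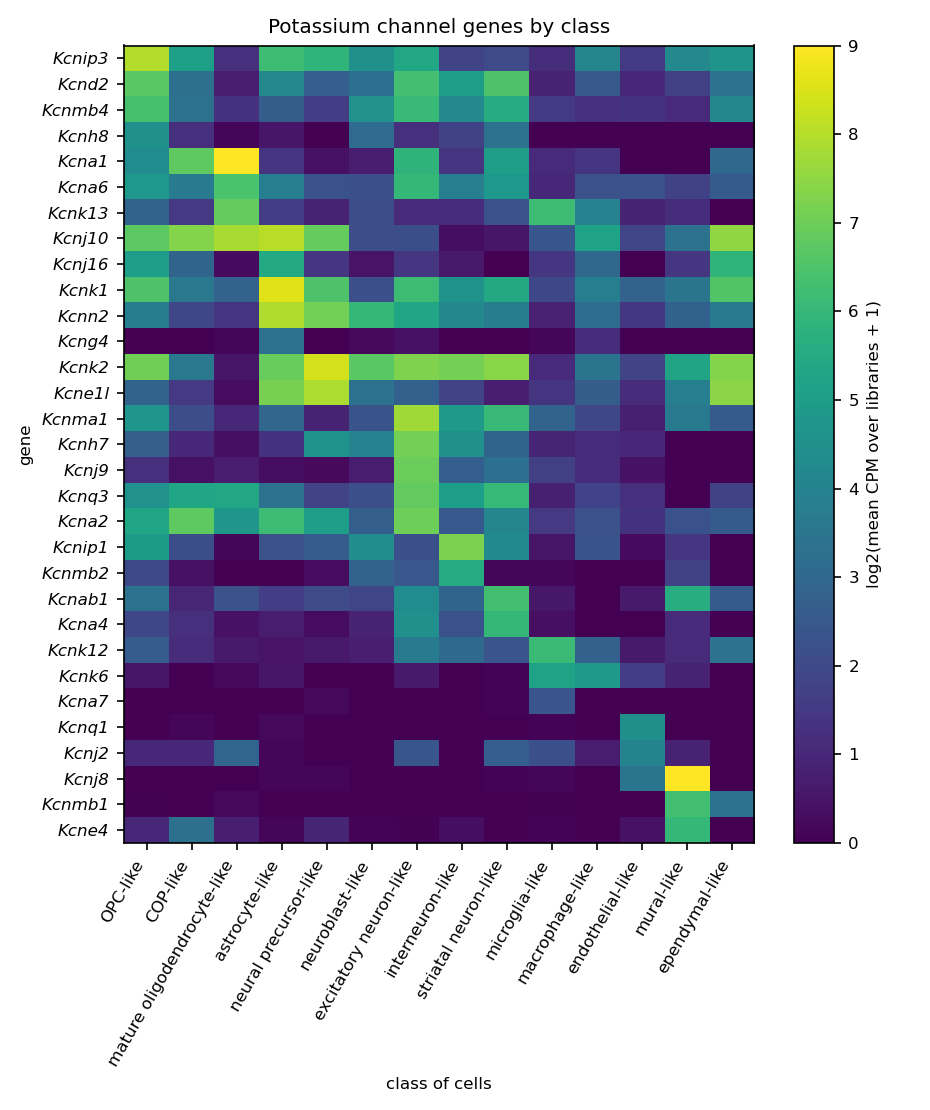
Mean CPM over libraries of 31 potassium channel genes (rows) in 14 classes (columns), on a log2(CPM + 1) colour scale from dark (0) to yellow (9). The brightest cells are Kcna1 in mature oligodendrocyte-like cells (505 CPM) and Kcnj8 in mural-like cells (524 CPM).

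Genome sequence before the start of genes that led the vascular mural-like and the astrocyte-like class is shown to compare members that were high in the same cells. Promoters are the 250 bases before the first listed RefSeq transcript start, on build GRCm38.p6, read 5' to 3' on the gene's strand. Capitals mark the E-box CANNTG, which reads the same on both strands. Kcnj8 lies on the minus strand at chr6:142571615-142571864, Kcnmb1 on the plus strand at chr11:33962763-33963012, and Kcne4 on the plus strand at chr1:78816661-78816910. Kcnk1 lies on the plus strand at chr8:125994852-125995101 and Kcnj10 on the plus strand at chr1:172340960-172341209.
Kcnj8: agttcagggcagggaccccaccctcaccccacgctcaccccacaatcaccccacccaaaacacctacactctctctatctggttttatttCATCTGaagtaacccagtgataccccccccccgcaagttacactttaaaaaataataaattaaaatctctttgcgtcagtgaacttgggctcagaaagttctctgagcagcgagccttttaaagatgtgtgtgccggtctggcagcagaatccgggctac
Kcnmb1: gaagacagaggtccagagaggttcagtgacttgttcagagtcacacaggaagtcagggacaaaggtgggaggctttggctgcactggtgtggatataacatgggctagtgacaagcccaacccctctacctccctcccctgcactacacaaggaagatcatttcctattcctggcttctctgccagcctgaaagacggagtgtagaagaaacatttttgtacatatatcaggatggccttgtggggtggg
Kcne4: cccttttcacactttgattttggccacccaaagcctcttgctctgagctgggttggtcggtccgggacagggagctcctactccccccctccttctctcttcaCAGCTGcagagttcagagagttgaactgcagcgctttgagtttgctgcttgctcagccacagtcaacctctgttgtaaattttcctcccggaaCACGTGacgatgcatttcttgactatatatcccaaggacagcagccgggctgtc
Kcnk1: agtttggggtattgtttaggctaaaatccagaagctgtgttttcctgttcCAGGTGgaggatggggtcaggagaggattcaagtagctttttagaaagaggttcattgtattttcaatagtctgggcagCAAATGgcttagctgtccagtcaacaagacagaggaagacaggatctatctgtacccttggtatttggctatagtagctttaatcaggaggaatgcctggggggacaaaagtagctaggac
Kcnj10: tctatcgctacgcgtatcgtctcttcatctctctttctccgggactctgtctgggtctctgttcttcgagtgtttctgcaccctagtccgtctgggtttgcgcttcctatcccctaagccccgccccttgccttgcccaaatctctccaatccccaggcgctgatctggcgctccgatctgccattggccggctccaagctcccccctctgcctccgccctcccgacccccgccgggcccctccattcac
The E-box occurred once in the Kcnj8 promoter and 2 times each in those of Kcne4 and Kcnk1, and had no match in those of Kcnmb1 and Kcnj10. The GENCODE annotation starts Kcne4 at chr1:78816758, within the stretch shown, so both of its matches lie inside that annotated gene. It was present in 66.22% of the 32851 listed promoters of the same length. The CArG box, known from smooth muscle genes, had no match in these 5 and was present in 1.467% of all. No motif of the mural-like group was shared by its 3 members among these letters, and a match or its absence says nothing of binding. Promoters were listed for 57 of the 80 members.

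In mature oligodendrocyte-like cells, the myelinating cells, the leading member was Kcna1, a Shaker-type voltage-gated channel best known from the axon beside the nodes of Ranvier. Kcna1 had 597, 326 and 659 CPM in the P60 libraries (cortex, grey matter, white matter), against 438 CPM in P15 cortex. All 4 sums stood above every other class sum, the highest of which was the committed oligodendrocyte precursor (COP)-like sum of P60 cortex at 297 CPM. After thinning each cell to 2000 UMIs, 45.2% to 70.5% of mature oligodendrocyte-like cells had a Kcna1 UMI (80.7% to 97.0% before thinning), against at most 0.758% of microglia-like cells (at most 1.504% before), which should lack it. Median depths were 4732 to 23307 UMIs in mature oligodendrocyte-like cells and 2474 to 10264 UMIs in microglia-like cells.

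Kcna6, a relative of Kcna1 that lies 62.0 kb away on chromosome 6, averaged 86.4 ± 21.0 CPM there (SD, n = 4 libraries), next to 63.4 CPM in excitatory neuron-like cells. Kcnk13, a halothane-inhibited leak channel, averaged 115 ± 51 CPM in mature oligodendrocyte-like cells and 70.7 ± 21.9 CPM in microglia-like cells (SD, n = 7), and was at 17.1 CPM or less in every OPC-like sum. Kcnj10 averaged 223 ± 46 CPM in mature oligodendrocyte-like cells, while Kcnj16, a subunit that pairs with Kcnj10 in channels of altered acid sensitivity, was at 0.632 CPM or less in all 4 sums. In astrocyte-like and OPC-like cells both genes were counted in each library.

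COP-like cells, newly differentiating cells, had Kcnj10 at 160 ± 60 CPM, the voltage-gated Kcna2 at 109 ± 58 CPM and Kcna1 at 107 ± 114 CPM (SD, n = 5). The Kcna1 values ranged from 13.2 CPM in P7 SVZ to 297 CPM in P60 cortex. Kcnj12, a strong inward rectifier, averaged 43.9 ± 19.2 CPM in COP-like cells, close to the 45.0 ± 43.5 CPM of mural-like cells (n = 5). No member was led by COP-like cells.

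OPC-like cells were led by Kcnip3, a calcium-binding protein that associates with Kv4-type channels and also acts as a transcriptional repressor (DREAM). It averaged 251 ± 77 CPM (SD, n = 7), and the next class, astrocyte-like cells, stood at 72.4 CPM. Kcnd2, a Kv4-type channel of the fast A-type current, averaged 103 ± 22 CPM, and Kcnmb4, a subunit of the large-conductance calcium-activated channel Kcnma1, averaged 82.4 ± 13 CPM. The Kcnd2 and Kcnmb4 levels overlapped those of neuronal classes, with ratios to the next class of 1.17 and 1.21. Kcnk2, a mechanosensitive leak channel, stood at 132 ± 46 CPM in OPC-like cells. The other members led by OPC-like cells were Kcnh8, an ether-a-go-go-like channel, at 21.8 ± 18.7 CPM, the Kv4-type Kcnd3 at 40.5 ± 9.4 CPM, and Kcnj5 at 0.223 ± 0.350 CPM, which rests on few UMIs.

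Astrocyte-like cells led Kcnk1, a weakly inward-rectifying leak channel, Kcnj10, Kcnn2, a small-conductance calcium-activated channel, Kcng4, an electrically silent subunit, and Kcnn3, among 6 members. Kcnk1 had 561, 656 and 452 CPM in the P60 libraries (cortex, grey matter, white matter), against 36.1, 155, 53.0 and 784 CPM in P2 cortex, P7 cortex, P7 SVZ and P15 cortex. Kcnn2 had 471, 228 and 420 CPM in the adult libraries in that order, against 36.1, 97.4, 19.0 and 420 CPM in the early ones. For both genes the P15 library stood with the adult ones, above the P2 and P7 libraries. Kcng4 followed with 17.5, 11.6 and 10.9 CPM in adult sums, against 0, 1.41, 0 and 24.7 CPM in early sums. Kcnj10 varied less, between 99.9 CPM in P7 SVZ and 370 CPM in P60 grey matter. Most P2 cells of this class lay in a cluster of 292 cells, 141 of them from P2, which 3 of the 4 alternative clusterings named differently or left under 20 cells, and the astrocyte-like cells of P7 cortex, P7 SVZ, P15 cortex and P60 each lay mainly in clusters of their own.

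Neural precursor-like cells, present in early libraries, led Kcnk2 at 334 ± 119 CPM, Kcne1l, a single-span accessory subunit of the Kcne family, at 234 ± 102 CPM, and the leak channel Kcnk10 at 43.3 ± 6.4 CPM (SD, n = 4). Kcnj10 stood at 116 ± 45 CPM. Kcne1l had 367, 257, 172 and 140 CPM in P2 cortex, P7 cortex, P7 SVZ and P15 cortex. Neuroblast-like cells, the migrating young neurons, led Kcnn1 alone, at 21.6 ± 14.6 CPM (n = 6) and a ratio of 1.01 to excitatory neuron-like cells. There Kcnk2 averaged 103 ± 31 CPM, the fast delayed rectifier Kcnc1 66.9 ± 16.1 CPM, Kcnn2 62.5 ± 21.1 CPM and Kcnd3 40.1 ± 35.6 CPM. The single ependymal-like sum, of 38 cells of P7 cortex, had Kcnj10 at 183 CPM, Kcne1l at 173 CPM, Kcnk2 at 161 CPM and Kcnj16 at 58.4 CPM, below the 109 CPM of astrocyte-like cells in that library. Kcnj13, a rectifier known from choroid plexus, reached 9.73 CPM there, on 4 UMIs, and 2.89 CPM or less in every other named sum. The remaining members led by that sum were Kcnc2, Kcnk5 and Kcnn4, at 21.9, 7.30 and 17.0 CPM. These leads rest on 9, 3 and 7 UMIs in that order. Kcnc2 was led by the Cajal-Retzius-like class with doublet calls kept and at a mitochondrial limit of 20%.

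Excitatory neuron-like cells led Kcnma1, the large-conductance calcium-activated channel that shortens action potentials, at 209 ± 194 CPM, and the ether-a-go-go-related Kcnh7 at 138 ± 133 CPM (SD, n = 4). Kcnk2 stood at 151 ± 71 CPM. The highest ratios to the next class among members with 50 UMIs were those of Kcnj9, a G protein-gated rectifier subunit, at 13.7, of Kcnj11, a pore subunit of the ATP-sensitive channel, at 7.33, and of Kcnk4, a mechanosensitive leak channel, at 6.85. Kcnq3, a subunit of the M-current that restrains repetitive firing, averaged 114 ± 96 CPM, and Kcna2 averaged 127 ± 165 CPM. Further members of this class were Kcnab2, Kcnab3, Kcnb2, Kcnc4, Kcnf1, Kcnh1, Kcnh3, Kcnh5, Kcnip4, Kcnj3, Kcnj4, Kcnj6, Kcnk9, Kcnq5, Kcns1, Kcns2, Kcnt2 and Kcnv1, at means of 9.17 to 80.6 CPM.

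These neuronal levels differed widely by age of cortex, with 1 library per age and no test. The summed level of the 80 members in excitatory neuron-like cells was 832 CPM at P2, 781 CPM at P7, 4176 CPM at P15 and 5378 CPM at P60. Kcnh7 stood at 38.9 CPM at P2, 15.9 CPM at P7, 208 CPM at P15 and 290.0 CPM at P60. Kcnma1 had 69.2, 19.1, 341 and 408 CPM, and Kcnj9 had 10.8, 3.19, 224 and 248 CPM, in the order P2, P7, P15 and P60. The cells of the ages were not the same kinds of neuron: the P15 and P60 cells lay mainly in 1 cluster of 230 cells, 142 of them from P60, and the 1754 P2 cells in other clusters. Markers of intermediate precursors summed to 49.9, 776, 134 and 28.4 CPM in these sums, all 7 markers being listed and 5 or 6 counted, and their part in the differences was not tested.

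**Figure D2:**
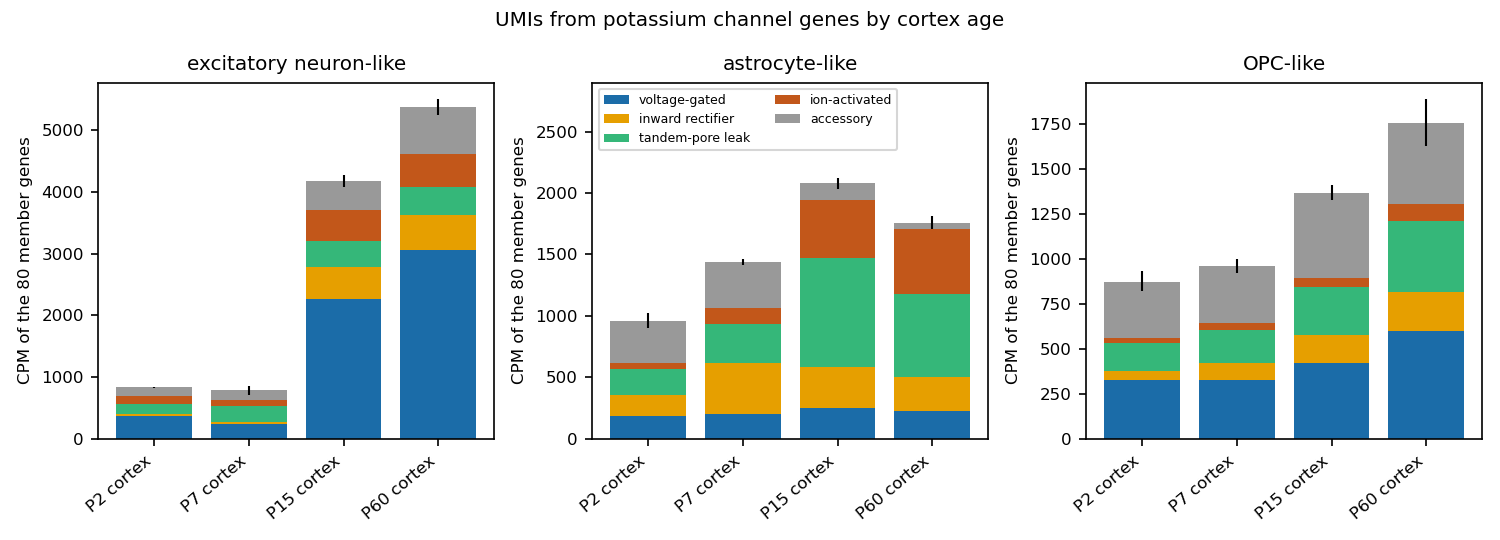
Summed CPM of the 80 member genes in cortex libraries of P2, P7, P15 and P60 (left to right), stacked by channel group, for excitatory neuron-like, astrocyte-like and OPC-like cells; black lines are 95% Poisson intervals of the sum. Excitatory neuron-like sums stand at 832 and 781 CPM at P2 and P7 and at 4176 and 5378 CPM at P15 and P60.

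Interneuron-like cells, counted in P2 cortex alone, led Kcnip1 at 150 CPM, Kcnip2 at 135 CPM, Kcnmb2 at 47.1 CPM, Kcnc1 at 96.3 CPM, and Kcnrg, Kcns3 and Kcnu1 at 1.80 to 16.2 CPM, and had Kcnk2 at 137 CPM. Kcnip1 and Kcnip2 are calcium sensors that bind Kv4-type channels, and Kcnmb2 is an inactivating subunit of Kcnma1 channels. Kcnip1 stood at 28.8 CPM in OPC-like cells, its next class. Striatal neuron-like cells, in P7 SVZ and P2 cortex, led Kcna4, a rapidly inactivating channel, at 96.0 and 28.9 CPM, Kcnab1, its inactivating beta subunit, at 110 and 43.4 CPM, and Kcnh4 at 18.8 and 23.5 CPM. They also led Kcng1, Kcnh2, Kcnt1 and Kcna3, at means of 0.897 to 29.6 CPM, and had Kcnk2 at a mean of 167 CPM and Kcnd2 at 88.3 CPM.

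Microglia-like cells led 4 members, Kcnk12, a relative of Kcnk13, Kcnk6, a weak leak channel, Kcnd1 and Kcna7, at 69.7 ± 25.5, 36.4 ± 10.2, 18.1 ± 11.4 and 4.13 ± 3.53 CPM (SD, n = 7). Kcnk13, which in mouse microglia sets the resting potential and the ramification of processes, had 94.0, 55.7 and 67.0 CPM in the P60 libraries (cortex, grey matter, white matter), against 49.1, 81.7, 46.2 and 101 CPM in the early libraries. Kcnk12 had 71.5, 61.8 and 79.1 CPM in the adult libraries, against 31.3, 97.0, 46.2 and 101 CPM in the early ones. The stages overlapped for both genes. The related macrophage-like class had Kcnk6 at 28.5 ± 9.9 CPM (n = 3), and its Kcnj10 and Kcnip3 means of 36.0 ± 29.9 and 16.1 ± 21.9 CPM came mostly from P7 cortex.

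Mural-like cells, the pericytes and smooth muscle cells of vessels, led Kcnj8, the pore subunit of the vascular ATP-sensitive channel, at 524 ± 346 CPM, 52.9 times the level of endothelial-like cells. Kcnj8 had 483 and 665 CPM in P60 cortex and white matter, against 462, 981 and 29.5 CPM in P7 cortex, P7 SVZ and P15 cortex. Only the P15 sum, with 7 UMIs, was low, and fibroblast markers summed to 8778 CPM in it and to 6801 CPM in that of P7 cortex, against 823 to 1189 CPM in the other 3 sums, with 7 or all of 8 markers counted in each. Their part in the difference was not tested. Kcnmb1, the smooth muscle subunit of Kcnma1 channels, had 142 and 102 CPM in the P60 sums, against 17.3, 39.5 and 84.2 CPM in P7 cortex, P7 SVZ and P15 cortex. Kcne4, a single-span subunit that restrains several channels, had 129 and 83.1 CPM, against 20.2, 62.0 and 21.0 CPM. Kcnj12, Kcnk3 and Kcna5 were also highest in this class, at 45.0, 38.7 and 12.1 CPM. They rest on 39, 35 and 10 UMIs in that order, with ratios to the next class of 1.02, 1.73 and 1.06.

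Endothelial-like cells had few channel UMIs, with member sums of 62.1, 103 and 60.9 CPM in the P60 libraries, against 204 and 179 CPM in P7 and P15 cortex. Kcnq1, a voltage-gated channel partnered by Kcne subunits, averaged 21.1 ± 22.2 CPM (SD, n = 5), on 73 UMIs. Its next class, astrocyte-like cells, stood at 0.141 CPM, so the ratio of 149 divides by a level near 0 and its size is uncertain. Kcnq1 lay at 14.3, 0 and 7.61 CPM in the P60 libraries (cortex, grey matter, white matter), against 56.8 and 26.9 CPM in P7 and P15 cortex. The strong inward rectifier Kcnj2, which senses raised potassium in brain capillaries, averaged 15.1 ± 13.3 CPM. Kcna5 averaged 11.4 ± 14.3 CPM, and Kcnj14 and Kcng2 were the other members led by this class, on 12 and 18 UMIs. For Kcng2 this class was highest in 1 of the 5 libraries that hold it. Reads of Kcnq1 and of its antisense transcript Kcnq1ot1 overlap in exons, and the counting strand is not given in the sources used here. Exons of 19 of the 80 members, Kcnq1, Kcnk1, Kcnk2, Kcnn2, Kcna6 and Kcnmb4 among them, overlap a gene on the opposite strand, and those of Kcnk4 overlap Catsperz on the same strand, so its level is uncertain. By contrast, Kcna1, Kcnj8, Kcnj10, Kcnj16 and Kcnip3 overlap no other counted gene. Kcnmb1 lies inside the span of Kcnip1.

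Adult and early libraries were compared within a class on summed counts with edgeR's quasi-likelihood test, with p-values adjusted by Benjamini and Hochberg over all genes tested. In OPC-like cells 4 members rose in the adult libraries and none fell: Kcnj16, Kcnh8, Kcnn2 and Kcnk1. The sums held 108, 121 and 88 cells in the P60 libraries (cortex, grey matter, white matter), against 161, 305, 534 and 497 cells in P2 cortex, P7 cortex, P7 SVZ and P15 cortex. The stages lay in different clusters: 105, 120 and 86 of the adult cells lay in a cluster that held 3, 44, 0 and 188 of the early cells, 456 of the P7 SVZ cells had a cluster of their own, and 140, 201 and 268 cells of P2, P7 and P15 cortex lay in another. The stage change within 1 cluster was not tested. Of the 80 members 23 passed the filter on low counts, which favours genes high in either stage. Over all 9777 genes tested 6.41% were called, 292 higher and 335 lower, which is 2.99% higher and 3.43% lower.

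Kcnj16 had 51.3, 67.9 and 63.4 CPM in the P60 libraries (cortex, grey matter, white matter), against 3.73, 14.6, 11.0 and 14.4 CPM in P2 cortex, P7 cortex, P7 SVZ and P15 cortex. Every adult value lay above every early one, and the means were 60.9 ± 8.5 and 10.9 ± 5.1 CPM (SD, n = 3 adult and 4 early). The log2 fold change was 2.22 ± 0.35 (SE), with an edgeR adjusted p of 0.00676. Kcnj16 remained called without any 1 library except P60 grey matter, without which its edgeR adjusted p was 0.0728.

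Kcnh8 had 51.3, 33.1 and 35.8 CPM in the adult sums, against 3.73, 3.66, 6.30 and 18.9 CPM in the early sums, so P15 was the early library nearest to the adult ones. Its log2 fold change was 2.05 ± 0.50, with an edgeR adjusted p of 0.0302. Kcnn2 had 31.8, 13.2 and 22.0 CPM, against 4.66, 4.88, 4.28 and 8.95 CPM, a log2 fold change of 1.73 ± 0.44 (edgeR adjusted p = 0.0344). Kcnk1 had 122, 175 and 105 CPM, against 28.9, 67.5, 45.9 and 78.6 CPM, a log2 fold change of 1.10 ± 0.30 (edgeR adjusted p = 0.0470). The stages did not overlap for these genes either. Here and for Kcnj16 that is a description, since no share of non-overlapping genes over all genes is given. All 3 lost the call when P60 cortex, grey matter, white matter, P2 cortex or P7 cortex was left out, Kcnh8 and Kcnk1 also without P7 SVZ, and Kcnn2 also with doublet calls kept. The number of members called was 0 without P60 grey matter, 1 without P60 cortex, P60 white matter, P2 cortex or P7 cortex, 3 without P7 SVZ and 6 without P15 cortex. No share over all genes is given for these fits, so these counts have no background.

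**Figure D3:**
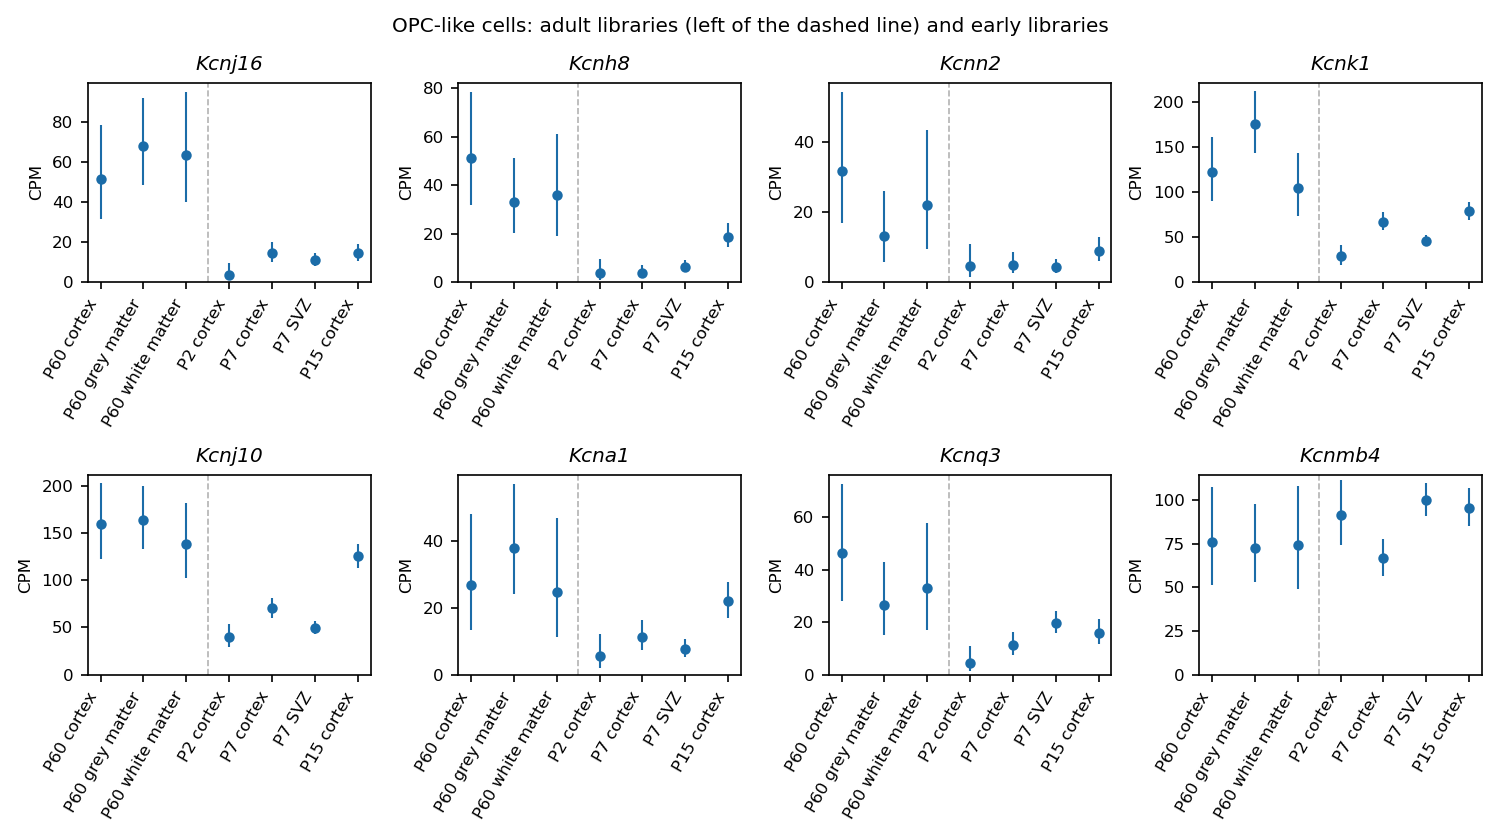
CPM of 8 potassium channel genes in OPC-like cells of the 3 adult libraries (left of the dashed line) and the 4 early libraries (right); points are library sums and bars 95% Poisson intervals. Kcnj16 stands at 51.3 to 67.9 CPM in adult sums and at 3.73 to 14.6 CPM in early sums, whereas Kcnmb4 overlaps between the stages.

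Kcnj10, Kcna1, Kcnq3 and Kcnip3 passed an unadjusted p of 0.05 but not the adjusted one, as 4 of the 8 members past it. No share over all genes is given at the unadjusted p, so that count has no background. Kcna1 had 26.9, 38.1 and 24.8 CPM in adult sums, against 5.59, 11.4, 7.65 and 22.1 CPM in early sums (log2 fold change 1.17 ± 0.43, edgeR adjusted p = 0.123). Kcnj10 had 159, 164 and 138 CPM in adult sums, against 40.1, 70.3, 49.5 and 125 CPM in early sums, with a log2 fold change of 0.93 ± 0.31 and an edgeR adjusted p of 0.0908. The M-current subunit Kcnq3 had 46.5, 26.5 and 33.1 CPM, against 4.66, 11.4, 19.8 and 16.0 CPM (log2 fold change 1.16 ± 0.41, edgeR adjusted p = 0.113). Among members with a lower fitted level in adult cells, Kcnd2 had 120, 67.9 and 96.4 CPM, against 96.9, 98.4, 138 and 107 CPM, and Kcnmb4 had 75.8, 72.9 and 74.4 CPM, against 91.3, 66.7, 100 and 95.6 CPM. The stages overlapped for both, with edgeR adjusted p of 0.339 and 0.286. The median log2 fold change of the 23 members tested was 0.29, against 0.01 over all genes tested.

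Of 33 genes listed as partners in potassium handling (sodium pumps, chloride cotransporters and channel-associated proteins), 15 were tested in OPC-like cells, 3 rose and none fell. Among these were the sodium pump subunit Atp1b2, also 1 of the 12 astrocyte markers whose sum is given next, with a log2 fold change of 1.13 ± 0.30, and Dpp6, which sets the speed of Kv4-type channels, with 0.99 ± 0.22 (edgeR adjusted p = 0.0434 and 0.0231). Other measures moved with stage in these sums. Astrocyte markers summed to 1137, 1207 and 716 CPM in the adult sums, with 9 to 10 of 12 counted, against 320, 589, 469 and 740 CPM in the early sums, with 10 to 12 of 12 counted. Among the astrocyte markers Gfap was at 0 in P60 cortex and white matter, Aldh1l1 in P60 cortex and grey matter, Gja1 in P60 white matter and P2 cortex, and Agt in P60 cortex, P60 grey matter, P2 cortex and P7 cortex. Others were higher in every adult sum: Slc1a2 had 350, 338 and 284 CPM, against 41.0 to 195 CPM in early sums, and Atp1b2 had 237, 214 and 154 CPM, against 51.3 to 142 CPM. Aldoc and Slc1a3 of P60 white matter, at 57.9 and 198 CPM, lay within their early ranges. Microglia markers summed to 362, 1320 and 157 CPM in adult sums, with 7 to 10 of 10 counted, against 20.5 to 127 CPM in early sums, with 3 to 10 counted. Cx3cr1, Tmem119 and Csf1r were at 0 in P60 white matter, Tmem119 in P7 SVZ, and 7 markers in P2 cortex. Genes of DNA replication and division summed to 3354, 2391 and 2380 CPM in adult sums, against 4737, 7081, 7492 and 4941 CPM in early sums. Genes of the dissociation response summed to 1577, 7601 and 2331 CPM in adult sums, against 1104, 838, 2117 and 523 CPM in early sums. The sum of P60 grey matter stood highest by far. No UMI of 4 Y-linked genes was counted in the adult sums, where 3 counts would be 4.97 to 8.26 CPM, against 120 to 165 CPM in early sums. Xist lay at 3028 to 4521 CPM in adult sums, against 48.5 to 1375 CPM in early sums, so that sex-linked genes moved with stage too. The part of these measures in the result was not tested, other than that of dividing cells.

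With non-cycling OPC-like cells alone (77, 90 and 64 adult cells, against 106, 194, 276 and 357 early cells), a setting added after the data were seen, 1 of 21 members tested was called, beside 131 genes higher and 125 lower of 8286 tested. Kcnj16 rose with a log2 fold change of 1.91 ± 0.37 (edgeR adjusted p = 0.0188). Kcnh8 and Kcnk1 had log2 fold changes of 1.86 ± 0.49 and 1.10 ± 0.32 (edgeR adjusted p = 0.0548 and 0.0761), and Kcnn2 did not pass the filter.

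The members' summed level in OPC-like cells was 1755, 1579 and 1617 CPM in the adult libraries, against 874, 960, 1174 and 1370 CPM in the early libraries. The means were 1651 ± 93 and 1095 ± 223 CPM (SD), a difference of 556 CPM, with no overlap between stages and an exact two-sided permutation p of 0.0571, the smallest that 3 against 4 libraries allow. Astrocyte-like sums averaged 1751 ± 10 CPM in adult and 1447 ± 467 CPM in early libraries (exact permutation p = 0.4, difference 142 to 515 CPM with 1 library left out), and microglia-like sums 282 ± 29 and 260 ± 70 CPM (exact permutation p = 0.686). COP-like, mural-like and neuroblast-like sums averaged 909, 1252 and 543 CPM in adult libraries, against 541, 870 and 604 CPM in early libraries, and endothelial-like sums 75.4 against 192 CPM, with exact permutation p of 0.2, 0.6, 0.8 and 0.2 in that order. With 1 library left out the difference ran from 185 to 550 CPM in COP-like and from 205 to 620 CPM in mural-like cells. With 2 or 3 libraries on a side the smallest p was 0.2 for COP-like, mural-like and endothelial-like cells and 0.133 for neuroblast-like cells.

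In astrocyte-like cells none of 26 members tested was called by edgeR, against 0.168% of all 10692 genes at the adjusted p (0.112% higher and 0.0561% lower). Of the members 6 had an unadjusted p under 0.05, and DESeq2 called 3. No share over all genes is given at the unadjusted p or for DESeq2, so these counts have no background. All 6 members past the unadjusted p had lower fitted levels in adult cells. Kcnip3 had 29.7, 28.9 and 47.4 CPM in the P60 libraries (cortex, grey matter, white matter), against 115, 113, 84.4 and 88.6 CPM in P2 cortex, P7 cortex, P7 SVZ and P15 cortex, with a log2 fold change of -1.57 ± 0.29 and an edgeR adjusted p of 0.0599. Kcne1l had 9.29, 20.2 and 10.9 CPM, against 188, 241, 491 and 26.2 CPM, with a log2 fold change of -4.30 ± 0.93 and an edgeR adjusted p of 0.0625. The stages overlapped for neither gene, again without a share over all genes, and the P15 value of Kcne1l lay nearest to the adult ones. Kcnmb4, Kcnd3, Kcnd2 and Kcnip1 had log2 fold changes of -4.75, -1.73, -1.44 and -2.76 (edgeR adjusted p = 0.0771, 0.0898, 0.0864 and 0.105). Kcnmb4 and Kcnip1 passed the filter in 3 of the 7 fits that left out 1 library, with log2 fold changes of -7.67 and -7.07 without P60 cortex. Without P15 cortex 9 members were called. No share over all genes is given for that fit, so this count has no background. The P2 sum rests on the cluster named above. Of the partners 18 were tested and none was called by edgeR, with 8 past an unadjusted p of 0.05, again without a share over all genes.

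The test of the difference between the stage changes in astrocyte-like and OPC-like cells, with library as a block, called 1 of 39 members, Kcnip3, against 1.38% of 12250 genes (0.18% higher and 1.2% lower). Its change was lower in astrocyte-like than in OPC-like cells by a log2 difference of -2.08 ± 0.31 (edgeR adjusted p = 0.0139). In OPC-like cells Kcnip3 had 284, 305 and 364 CPM in the adult sums, against 170, 178, 174 and 286 CPM in the early sums, so the adult OPC-like values lay above those of P2 and P7 and overlapped that of P15. Within each class alone its stage change was not called. The adjusted p of the difference was 0.164, 0.116, 0.0703 and 0.0539 without P60 cortex, grey matter, white matter and P7 cortex, with log2 differences of -2.25 to -1.95 over all 7 libraries left out in turn. Without P15 cortex 8 members were called, a count with no background, as no share over all genes is given for that fit.

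**Figure D4:**
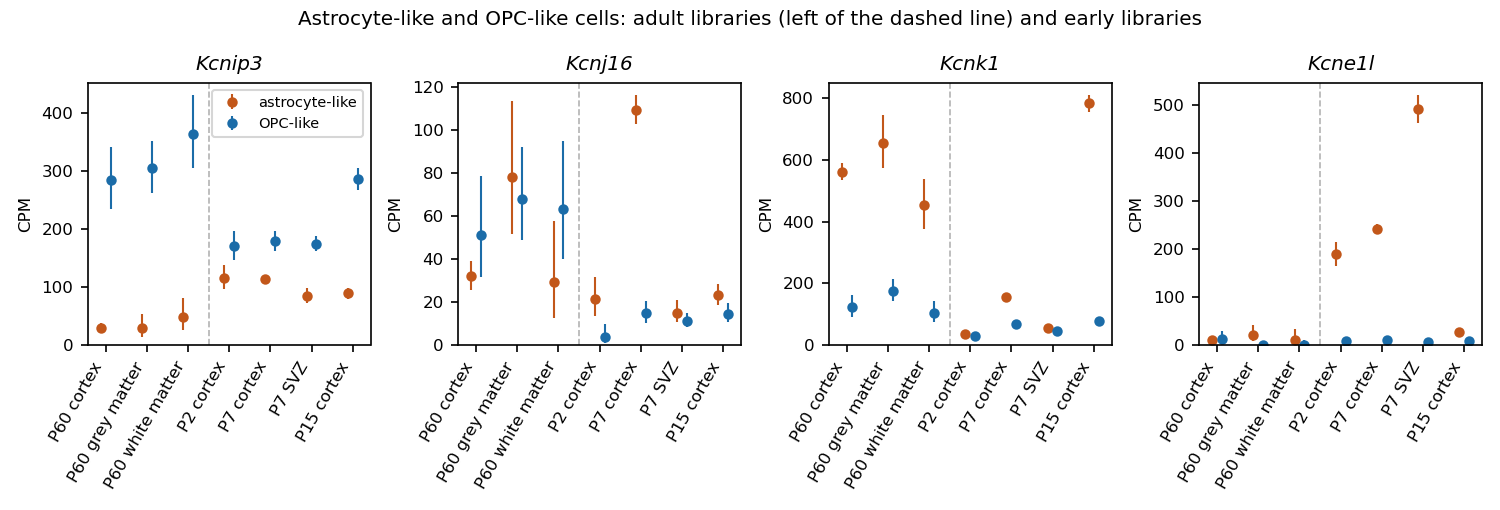
CPM of Kcnip3, Kcnj16, Kcnk1 and Kcne1l in astrocyte-like (orange) and OPC-like (blue) cells of the 3 adult libraries (left of the dashed line) and the 4 early libraries (right), with 95% Poisson intervals. Kcnip3 is higher in adult than in P2 and P7 OPC-like cells and lower in adult than in early astrocyte-like cells.

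In the remaining classes no member was called by edgeR or by DESeq2 with the filter on low counts and every library kept. The members tested were 20 in COP-like, 7 in microglia-like, 16 in neuroblast-like and 6 in mural-like cells, and the members with an unadjusted p under 0.05 were 1, 0, 0 and 3 in that order. Over all genes 0.0%, 0.0314%, 0.0118% and 0.0% were called at the adjusted p in these classes, with 0.0105% higher and 0.0209% lower in microglia-like cells. No share over all genes is given at the unadjusted p. In COP-like cells Kcna1 averaged 201 ± 135 CPM in adult libraries (n = 2) and 44.0 ± 43.6 CPM in early libraries (n = 3), with an edgeR adjusted p of 0.440. In mural-like cells Kcnj12 had 89.8 ± 26.7 CPM in adult libraries (n = 2) and 15.1 ± 8.9 CPM in early libraries (n = 3), with an edgeR adjusted p of 0.188. In endothelial-like cells, where 10.2% of 4337 genes were called (5.76% higher and 4.45% lower), no member passed the filter, and of 5 partners tested 2 rose, Fxyd5 among them, and Fxyd6 fell.

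Cycling OPC-like cells, with more than 10 UMIs from lists of S and G2M phase genes after thinning to 2000 UMIs, were compared with non-cycling cells, with at most 5, inside each of the 4 early libraries. The sums held 26, 69, 149 and 76 cycling cells in P2 cortex, P7 cortex, P7 SVZ and P15 cortex, against 106, 194, 276 and 357 non-cycling cells. Kcna1, Kcnj16, Kcnip3 and Kcnip2 fell in cycling cells and Kcnab2 rose. These were 5 of 26 members tested, against 23.3% of the 10066 genes tested, 13.1% higher and 10.2% lower, so the share of members called (19.2%) was near the background.

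Kcna1 had 4.28, 2.76, 2.61 and 2.93 CPM in cycling cells of P2 cortex, P7 cortex, P7 SVZ and P15 cortex, against 7.45, 15.9, 9.73 and 28.4 CPM in their non-cycling cells. It was lower in cycling cells of 4 of 4 libraries, with a log2 fold change of -2.35 ± 0.42 (edgeR adjusted p = 1.26e-05). Kcnip3 had 120, 141, 148 and 187 CPM in cycling cells, against 185, 191, 183 and 315 CPM in non-cycling cells, lower in 4 of 4 libraries, with a log2 fold change of -0.50 ± 0.10 (edgeR adjusted p = 8.74e-05). Kcnj16 had 0, 8.28, 5.22 and 8.79 CPM, against 4.47, 18.7, 13.6 and 17.2 CPM (log2 fold change -1.20 ± 0.35, edgeR adjusted p = 0.00741). These levels rest on few molecules, with 1 to 4 Kcna1 UMIs and 0 to 8 Kcnj16 UMIs in a cycling sum.

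Kcnip2 averaged 4.33 ± 3.04 CPM in cycling cells and 13.7 ± 6.0 CPM in non-cycling cells (SD, n = 4), with a log2 fold change of -1.15 ± 0.40 (edgeR adjusted p = 0.0302). Kcnab2, a cytoplasmic beta subunit of Kcna channels, averaged 8.95 ± 2.43 CPM in cycling cells and 2.62 ± 1.90 CPM in non-cycling cells. Its log2 fold change was 1.53 ± 0.50 (edgeR adjusted p = 0.0196). Both genes rest on few molecules. Kcnip2 had 0, 5, 7 and 4 UMIs in cycling sums of P2 cortex, P7 cortex, P7 SVZ and P15 cortex. Kcnab2 had 2, 7, 9 and 8 UMIs there, against 1, 1, 7 and 10 in the non-cycling sums. In P7 SVZ Kcnip2 had 4.57 CPM in cycling cells, against 4.86 CPM in non-cycling cells. Kcnj10 and Kcnk1 had 66.9 and 57.6 CPM in cycling cells, against 75.2 and 54.6 CPM in non-cycling cells, and were not called. DESeq2 called 2 members, Kcna1 and Kcnip3, which were also called by edgeR without any 1 library. Kcnip2 lost its call without P2, P7 or P15 cortex (edgeR adjusted p = 0.0837, 0.157 and 0.125) and Kcnj16 without P7 SVZ (0.0692). Kcnab2 passed the filter only without P2 cortex among the fits that left out a library, and was called there. Without the library as a block, none of 18 members tested was called. No share over all genes is given for DESeq2, for fits that left out a library or for the fit without the block. Of 17 partners tested, Fxyd6 rose and 3 fell, Dpp6 and Fxyd7 among them.

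**Figure D5:**
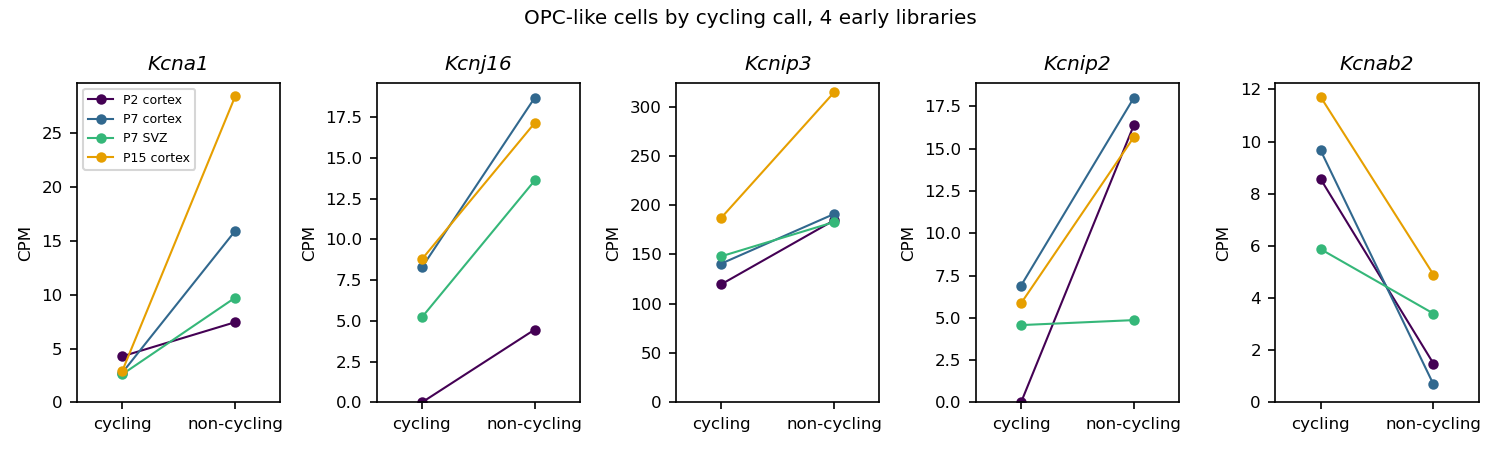
CPM of the 5 called members in cycling (left) and non-cycling (right) OPC-like cells of the 4 early libraries, with a line joining the sums of a library. Kcna1 lies at 2.61 to 4.28 CPM in cycling cells and at 7.45 to 28.4 CPM in non-cycling cells.

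White matter and grey matter at P60 had 1 library each, so ratios are given with exact conditional intervals for counting error and no test. Of the members with at least 20 UMIs in the pair, none of 19 in OPC-like, 8 in astrocyte-like and 10 in mature oligodendrocyte-like cells had a ratio whose interval lay beyond 2-fold, against 1.93%, 1.01% and 2.09% of all genes. In endothelial-like cells, where 1.58% of genes did, no member had 20 UMIs. In microglia-like cells 1 of 22 did, against 6.9% of genes. In mature oligodendrocyte-like cells Kcna1 had 659 CPM in white matter and 326 CPM in grey matter, a ratio of 2.02 (1.64 to 2.51). In OPC-like cells Kcnj16 had 63.4 and 67.9 CPM, a ratio of 0.933 (0.535 to 1.59), and Kcnip3 had 364 and 305 CPM, a ratio of 1.19 (0.947 to 1.501).

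P7 SVZ and P7 cortex, which also differ in strain, were set side by side in the same way. Members beyond 2-fold were 13 of 28 in neuroblast-like cells (11 higher in SVZ), 6 of 31 in astrocyte-like cells (2 higher), 4 of 20 in COP-like cells (2 higher), 2 of 42 in OPC-like cells (both higher), and none of 24 in neural precursor-like, 6 in microglia-like and 2 in mural-like cells. The shares of all genes were 14.3%, 7.36%, 4.03%, 4.56%, 4.99%, 4.81% and 7.93% in that order. In astrocyte-like cells Kcnj10 had 99.9 CPM in SVZ and 308 CPM in cortex, a ratio of 0.325 (0.282 to 0.372), and Kcnj16 had 15.02 and 109 CPM, a ratio of 0.137 (0.0946 to 0.193). Kcnk1 and Kcnn2 were lower too, with ratios of 0.343 (0.282 to 0.413) and 0.195 (0.140 to 0.265). The G protein-gated Kcnj6 was higher in SVZ, with 18.6 CPM against 0.979 CPM in cortex, a ratio of 19.0 (9.10 to 44.3).

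In neuroblast-like cells Kcnma1 had 17.3 CPM in SVZ and 0.940 CPM in cortex, a ratio of 18.4 (5.76 to 93.6), and the sodium-activated channel Kcnt1 had 9.42 and 0.626 CPM, a ratio of 15.03 (3.599 to 134). Kcne1l had 1.05 CPM in SVZ and 28.8 CPM in cortex, a ratio of 0.0363 (0.00433 to 0.135), which turned to 1.72 when member genes were allowed among the genes used for clustering. In COP-like cells Kcnc1 had 8.62 CPM in SVZ and 0.436 CPM in cortex (19 and 1 UMIs), a ratio of 19.8 (3.14 to 822). In OPC-like cells Kcnh5 and Kcnab1 were higher in SVZ, with ratios of 9.41 (2.41 to 80.9) and 6.83 (2.16 to 34.6). Different clusters held most neuroblast-like and astrocyte-like cells of the 2 libraries, so these ratios may compare different cells under 1 class name.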

How the data were processed

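Each of the 7 libraries has a deposited matrix of raw counts, in UMIs, over genes and barcodes. Its file header names Cell Ranger 3.0.2, and the submitters' processing notes name mm10. Neither the annotation release nor the counting strand is stated in the sources used here. Overlaps between genes were taken from the GENCODE annotation of the same build. Totals were 10074763 to 45668007 UMIs per library.

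Cells with at least 500 genes and at most 10% mitochondrial UMIs were kept, and doublet calls (scrublet, expected rate 0.06) were removed. Cells were clustered with scanpy 1.11.5 (2000 variable genes without member genes, 30 principal components, 15 neighbours, Leiden resolution 1.5) under Python 3.11.15. A marker counted as raised when at least 2-fold above the other cells and found in at least 10% of a cluster's cells. A class with at least 3 raised markers scored its share of markers raised times the mean log2 fold of all its markers. The highest score named the cluster. It stayed unnamed where another class had more markers raised, or where its 10 leading genes or its depth went against the name. Raw counts were summed per class and library (at least 20 cells, or 15 for cycling calls) and tested with edgeR 4.0.16 in R 4.3.3 (quasi-likelihood, TMM scaling, filterByExpr, adjusted p at most 0.05), after the fit had been tested on simulated data. The cycling and astrocyte against OPC fits have the library as a block, since both sums of a pair come from the same library. Alternatives were DESeq2 1.42.0, its size factors, no filter on low counts, other clusterings and cell filters, and leaving out each library.

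The text names each member called in a test, the members with the most UMIs or the largest ratio to the next class in each class, the 5 largest ratios between single libraries and a fixed list, and other members for completeness. Single libraries were compared at 20 UMIs or more, and a ratio counted when its 95% interval lay beyond 2-fold. The level of 3 counts is given for the Y-linked genes only. Other counts of 0 stand without it, so they do not show absence. The members and lists were chosen with earlier results of these data known, and the limits of the cycling calls after their distribution was seen. A few genes are counted in the totals but not reported here.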

Additional observations from a re-analysis of the deposited data

Results flagged for a closer look

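Readings from P15 cortex stood apart from the other early libraries among the 29 groups of 4 libraries examined, of which chance flags about 1 in 20. Kcnip3 in OPC-like cells had 286 CPM at P15, against 170 to 178 CPM in the other 3 early libraries. Kcnip3 in non-cycling OPC-like cells had 315 CPM at P15, against 183 to 191 CPM. Kcnn2 in OPC-like cells had 8.95 CPM at P15, against 4.28 to 4.88 CPM.

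The stage change of Kcnip3 differed between classes, with a log2 difference of -2.08 for astrocyte-like minus OPC-like cells in the edgeR test given above.

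Among entries left out of the members, Kcnq1ot1 had 26299 UMIs over all barcodes, Kcnmb4os2 had 1541, Kcnd3os 240, Kcnab3os 59 and Kcnmb4os1 6. Cells of unnamed clusters held 21988 member UMIs, which entered no comparison.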

How the results depend on the processing

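With no filter on low counts, members called were 7 in OPC-like, 3 in astrocyte-like, 2 in COP-like, 4 in endothelial-like and 2 in mural-like cells, and 6 for the difference between astrocyte-like and OPC-like cells. DESeq2 called 3 in astrocyte-like cells and 2 between cycling and non-cycling cells. Without the replicate block, which pairs sums of the same library, 0 members were called between cycling and non-cycling cells. Non-cycling cells alone gave 1 call in OPC-like cells. Leaving out each library gave 0 to 6 members in OPC-like, 0 to 9 in astrocyte-like, 0 to 1 in COP-like, 0 to 1 in microglia-like and 0 to 2 in mural-like cells, 0 to 8 for the astrocyte-like minus OPC-like difference and 3 to 6 for cycling cells. The adult minus early difference of the members' summed level ran from -0.152 (without P2 cortex) to 54.1 CPM in microglia-like cells and from -120.05 to 16.7 CPM (without P7 SVZ) in neuroblast-like cells. Between P7 SVZ and P7 cortex, members beyond 2-fold in OPC-like cells were 4 under each of the 4 other clusterings. In neural precursor-like cells they were 12 at Leiden resolution 1.0, 12 with doublet calls kept, 3 with member genes allowed in clustering and 4 at a mitochondrial limit of 20%. In neuroblast-like cells they were 6 with member genes allowed, where the Kcne1l ratio was 1.72, and 23 at the 20% limit, and in microglia-like cells 2 members passed between white and grey matter at that limit. The cause of these changes was not tested. Apart from non-cycling cells alone, no share over all genes is given for the settings of this section, so their counts have no background. Few cells and few UMIs limit the low members, and 1 library per age and region leaves neither replicated.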
